A study of Mus musculus with 30 samples.

Results

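Dlx1 and Dlx2 are a pair of neighbouring homeobox genes, and their RNA was followed here across the 9 RNA libraries of newborn mouse retina that stand behind the deposited tables. They are 2 of the 38720 genes in those tables. They were chosen because, among genes counted as retinal ganglion cell markers, they were the ones with more RNA in mutant than in wild type ganglion cell libraries. That difference is therefore given as a description, with no test. Of the 32 other ganglion cell markers listed and tested here, none rose in the mutant libraries by limma, voom or the authors' deposited table, and 1 had an unadjusted limma p under 0.05 upwards; over all genes 13.7% were called higher and 12.3% lower. The nearest to the pair were Myt1, with a log2 difference of 0.22, and Sox11, with 0.10, against 1.23 for Dlx2 and 1.32 for Dlx1.

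The DLX proteins are transcription factors related to Distal-less of the fly. In mice the genes lie in pairs that are transcribed towards each other and share enhancers. In the embryonic forebrain DLX1 and DLX2 drive the differentiation and migration of GABAergic interneurons, and activate the genes of GABA synthesis. In the retina they are made in a part of the progenitor cells and in ganglion, amacrine and horizontal cells, and mice without both genes lose late-born ganglion cells. Dlx genes are also known as targets of Polycomb repressive complex 2, the enzyme complex that places trimethylation on lysine 27 of histone H3 and whose catalytic subunit is Ezh2.

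The study used pups at postnatal day 0, and drew retinal ganglion cells (RGCs) from papain-digested retina with magnetic beads against CD90, the protein encoded by Thy1; the remaining cells are the non-RGC fraction. WT animals were C57BL/6, and no Cre is listed for them. The mutants carried Math5Cre, a Cre recombinase driven from the gene Math5 (Atoh7) that is active in the ganglion cell lineage, together with Ezh2f/f alone or with Ezh2f/fG9af/+, in which 1 copy of the G9a gene is floxed as well. The tables hold 3 libraries each of WT RGC, mutant RGC and mutant non-RGC cells, and call the mutant only "mut". Which of the 2 mutant genotypes it was is not stated, and "mutant" means the libraries so named. WT non-RGC cells and the chromatin samples were not analysed here.

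The libraries held between 10551825 and 12259494 assigned reads. No table ties them to replicate numbers, so the numbers 1 to 3 used here follow the size factor, largest first, and pair nothing between groups. The labels do not say whether they came from separate animals, so the spread between them may be partly technical. Thy1, the selection marker, had a mean normalised count of 2279 in WT RGC, 1297 in mutant RGC and 189.9 in mutant non-RGC libraries. Ezh2 itself had a higher count in the RGC libraries labelled mutant (1906 ± 48.9 against 1289 ± 242, SD, n = 3, limma adjusted p = 0.0292), and these counts cover the whole gene and are not limited to the floxed part. One library of each group stood apart. WT RGC library 3 had a summed level of 38 proliferation genes of 46990, against 27490 and 29760 in the other WT libraries. Mutant RGC library 1 had a summed level of 32 ganglion cell markers of 38010, against 57540 and 57530, and of 16 microglia markers of 10170, against 3096 and 2757. Mutant non-RGC library 3 had a summed level of photoreceptor markers of 39000, against 29020 and 28890.

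On GRCm38, the build also called mm10, Dlx1 spans chr2:71528113-71533981 and Dlx2 spans chr2:71543408-71546754, with 9426 bases between them. The 2 genes face each other. The antisense gene Dlx1as, which the tables call Dlx1os, spans chr2:71530638-71537891, so that 3344 bases of it lie inside Dlx1. No strand setting is recorded for the counting, and reads of Dlx1 and of Dlx1os may not have been separated. Sequence before 1 transcript start of each gene, as RefSeq's promoter windows give it, is shown as a description. CpG-rich start regions are the kind at which Polycomb complexes act, and whether they act at these windows was not tested here. The windows come from RefSeq, build GRCm38.p6. For Dlx1 this window (chr2:71529195-71529444) lies inside the gene span given above, which begins further upstream, so the start it belongs to is not the outermost one. The 30 bases with the most CG steps in that window are printed (chr2:71529354-71529383, plus strand), with each CG in capitals. For Dlx2 the window ends at the gene's start, and all 250 bases before it are printed (chr2:71546755-71547004, minus strand), with the motif matches in capitals.
Dlx1: CGCGactcCGCGatccagagacCGCGgcCG
Dlx2: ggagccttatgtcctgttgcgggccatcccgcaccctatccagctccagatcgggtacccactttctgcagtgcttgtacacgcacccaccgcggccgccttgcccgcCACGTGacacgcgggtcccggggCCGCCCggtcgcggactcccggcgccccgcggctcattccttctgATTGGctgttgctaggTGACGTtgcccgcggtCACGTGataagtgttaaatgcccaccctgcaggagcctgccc

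Both windows were rich in CG steps. The Dlx1 window of 250 bases was 68.0% G or C and held 22 CG steps, and 14.8% of 32851 RefSeq promoter windows of this length held as many or more. The Dlx2 window was 66.4% G or C with 24 CG steps, a number reached by 12% of the windows. A search on both strands covered 7 motifs, and the Dlx1 window held none of them. The Dlx2 window held CACGTG, an E-box, 2 times, at 142 and 42 bases before the start. CACGTG occurred in 6.02% of all windows, and 2 or more times in 0.429% of them. Each CACGTG is also a match to CANNTG, which 66.2% of windows held. The window also held 1 match each to TGACGT (6.47% of windows), CCAAT, read as ATTGG on this strand (33.8%), and GGGCGG, read as CCGCCC (32.7%). TAAT, the core letters of many homeodomain sites, was in neither window and in 54.9% of all, and the TATA box letters TATAAA were in neither and in 12.4% of all. A match to these letters is a description of the sequence, and binding was not measured.

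Dlx1 had the fewest reads in WT RGC and the most in mutant non-RGC libraries, with mutant RGC libraries between. It was counted with 50, 49 and 94 reads in WT RGC libraries 1 to 3, with 118, 209 and 189 in mutant RGC libraries, and with 268, 279 and 137 in mutant non-RGC libraries. Scaled over the 9 libraries together, the mean normalised count was 67.9 ± 30.4 in WT RGC, 162.7 ± 46.7 in mutant RGC and 223.0 ± 71.3 in mutant non-RGC libraries (SD, n = 3 each). The highest WT library, number 3, stood at 103.0 and the lowest mutant RGC library, number 1, at 109.2, so the groups did not overlap but nearly met. The 95% Poisson interval of the reads is 76.0 to 115.0 for the 94 reads of the WT library and 97.7 to 141.0 for the 118 reads of the mutant library. Such intervals cover counting error only.

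Dlx2 followed the same order of group means. It had 108, 92 and 141 reads in WT RGC libraries 1 to 3, 210, 362 and 305 reads in mutant RGC libraries, and 349, 336 and 213 reads in mutant non-RGC libraries. Its mean normalised count was 119.2 ± 31.0 in WT RGC, 276.3 ± 73.9 in mutant RGC and 293.4 ± 64.6 in mutant non-RGC libraries (SD, n = 3 each). Here the gap between the groups of RGC libraries was wider: WT library 3 stood at 154.5 and mutant RGC library 1 at 194.3.

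**Figure D1:**
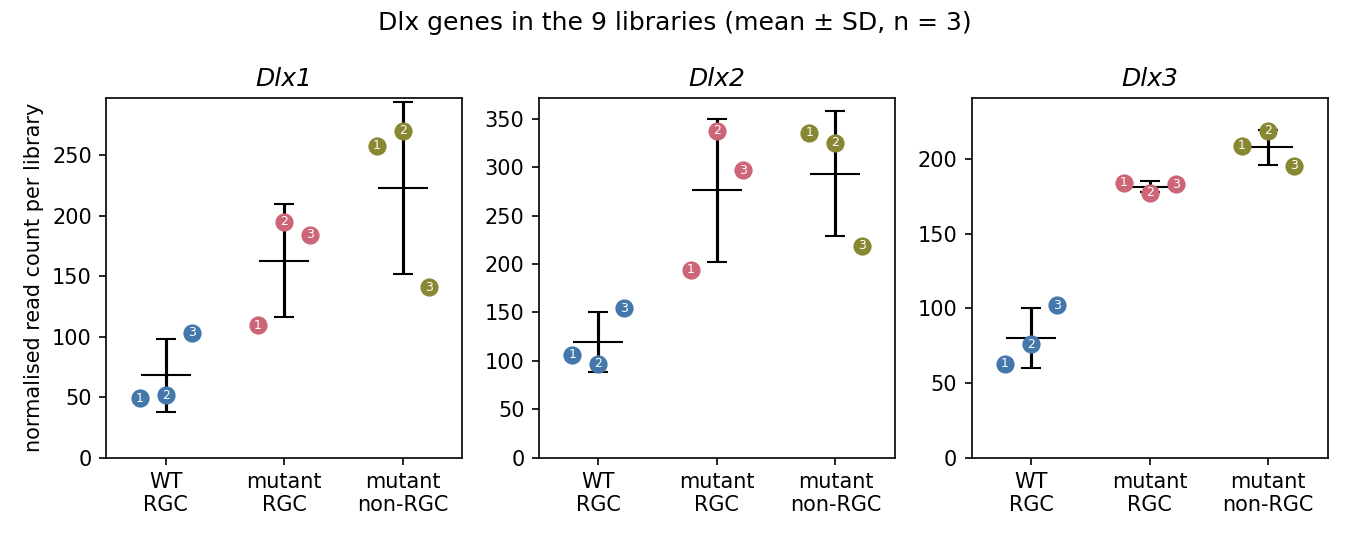
Normalised read count per library (y axis, linear from 0, scaled over the 9 libraries) of Dlx1, Dlx2 and the related gene Dlx3 in the 3 groups; numbered points are libraries, bars the mean ± SD (n = 3). For Dlx1 and Dlx2 the highest WT point (library 3) lies below the lowest mutant RGC point (library 1), and mutant non-RGC library 3 lies within the range of the mutant RGC points.

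Between genotypes, Dlx1 was 2.50-fold and Dlx2 2.35-fold higher in mutant RGC libraries, with log2 differences of 1.32 (SE 0.37) and 1.23 (SE 0.28). The authors' deposited table gives ratios of 2.46 and 2.38. These values chose the pair, so they carry no test. The groups did not overlap for either gene, and 26.2% of the 15276 genes tested in this comparison were likewise entirely above WT. Leaving out 1 library at a time gave log2 differences of 1.14 to 1.66 for Dlx1 and of 1.06 to 1.48 for Dlx2. In these bulk libraries, more cells that express a gene and more RNA per cell cannot be told apart.

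Between the fractions of the mutant retina, neither gene passed the test. Dlx1 was 1.35-fold higher in non-RGC than in RGC libraries, a log2 difference of 0.44 with a 95% interval of -0.31 to 1.19 (limma adjusted p = 0.402). Dlx2 was 1.07-fold higher, a log2 difference of 0.10 with an interval of -0.50 to 0.69 (limma adjusted p = 0.832). The groups overlapped for both genes. For Dlx1 non-RGC library 3 lay within the range of the RGC libraries, and for Dlx2 all 3 non-RGC libraries did. The difference for Dlx2 turned to -0.15 without mutant RGC library 1 and to -0.015 without mutant non-RGC library 1. The authors' deposited table gives adjusted p = 0.842 for Dlx1 and 1.0 for Dlx2. These comparisons share the mutant RGC libraries with the comparison of genotypes.

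In the same fractions 19 of 32 ganglion cell markers were lower in non-RGC libraries and none higher, also at an unadjusted limma p under 0.05, by voom or in the authors' deposited table (median log2 difference -1.83, against 0.01 over all 15178 genes tested), where 12% of all genes were called lower and 5.07% higher. The RNA of Dlx1 and Dlx2 was thus not shown to be enriched in the CD90-selected fraction, in contrast to the ganglion cell markers as a list, and the difference between the pair and the list was not tested. Thy1 and Pou4f2, the latter a transcription factor of ganglion cell differentiation, had low reads in non-RGC library 3, with 10 and 24 reads. Dlx1 and Dlx2 had 137 and 213 reads there.

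The share of Dlx1 in the reads of the pair ran from 31.6% to 45.4% over the libraries. It was 31.6% (95% exact binomial interval 24.5 to 39.5), 34.8% (26.9 to 43.2) and 40.0% (33.7 to 46.6) in WT RGC libraries 1 to 3. In mutant RGC libraries it was 36.0% (30.8 to 41.4), 36.6% (32.6 to 40.7) and 38.3% (34.0 to 42.7). In mutant non-RGC libraries it was 43.4% (39.5 to 47.5), 45.4% (41.4 to 49.4) and 39.1% (34.0 to 44.5). The WT and mutant RGC libraries overlapped, while all 3 non-RGC libraries lay above the mutant RGC libraries. The mean log2 ratio of Dlx1 to Dlx2 was -0.43 ± 0.19 in non-RGC and -0.77 ± 0.07 in mutant RGC libraries (SD, n = 3), a difference given without a test, since 3 against 3 libraries cannot give an exact two-sided permutation p under 0.1. Reads were not divided by transcript length, so the share says nothing about which gene had more transcripts. Reads of Dlx1os, which overlaps Dlx1, were also more numerous in the non-RGC libraries, at 33, 30 and 13 against 13, 11 and 6, and their part in the share was not tested.

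**Figure D2:**
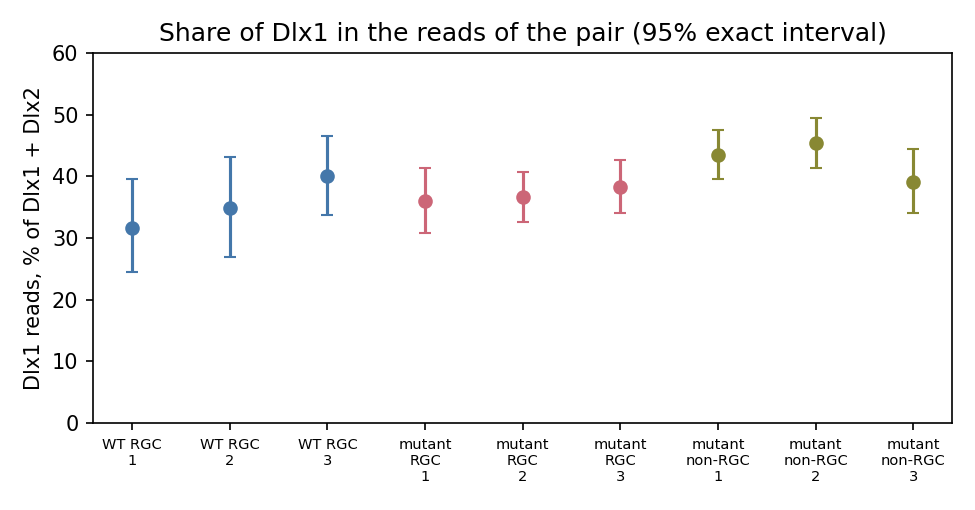
Share of Dlx1 in the summed reads of Dlx1 and Dlx2 (y axis, percent) in each of the 9 libraries, with exact 95% binomial intervals. Mutant RGC libraries lie between 36.0% and 38.3% and mutant non-RGC libraries between 39.1% and 45.4%, with intervals that meet for non-RGC library 3.

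Of the rest of the family, Dlx3 was the only gene besides the pair with enough reads to be tested in both comparisons. Dlx3, a regulator of skin, tooth and placenta development, lies on another chromosome (chr11:95120117-95125296). It had 64, 72 and 93 reads in WT RGC libraries, 199, 190 and 188 in mutant RGC libraries and 217, 226 and 190 in mutant non-RGC libraries. It rose between genotypes, from a normalised count of 79.5 ± 20.0 to 184.2 ± 2.44 (SD, n = 3), a log2 difference of 1.23 (SE 0.20, limma adjusted p = 0.0238). The call was lost without WT library 1 (limma adjusted p = 0.107), WT library 2 (0.0911), mutant RGC library 2 (0.0728) or mutant RGC library 3 (0.067). Between fractions Dlx3 differed by 0.19 (limma adjusted p = 0.285). Mutant RGC library 1, the lowest of its group for Dlx1 and Dlx2, was not low for Dlx3.

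The remaining family members were at or near the limit of detection. Dlx1os, the antisense RNA of the Dlx1 locus, had 8, 6 and 10 reads in WT RGC and 13, 11 and 6 in mutant RGC libraries, too few for the test between genotypes. Between fractions its normalised count was 9.73 ± 3.23 in RGC and 25.7 ± 10.4 in non-RGC libraries (SD, n = 3). It met the minimum level there through its non-RGC libraries alone, so this difference is given without a test. Dlx4 had at most 5 reads in a library and Dlx5 at most 4. Dlx6, the partner of Dlx5 in another pair of the family, had 1 read in all 9 libraries, and the antisense RNA Dlx6os1 had none.

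Genes known or held to act upstream of Dlx1 and Dlx2, or with them, were tested next. Over all genes tested between genotypes, 13.7% were called higher and 12.3% lower. Of 16 such regulators tested, 6 rose between genotypes and none fell (none by voom or the authors' deposited table, and none at an unadjusted limma p under 0.05), with a median log2 difference of 0.52 against 0.00 over all genes tested. Neurog2, Foxn4, Vax1, Meis2 and Meis1 were among them. Neurog2, a proneural factor of progenitor cells, had 481.6, 471.5 and 1020 normalised reads in WT RGC and 1192, 1405 and 1442 in mutant RGC libraries, a log2 difference of 1.16 (limma adjusted p = 0.0374). WT library 3 was again the highest of its group and no WT library reached the mutant range. Foxn4, which drives amacrine and horizontal cell fates, differed by 1.04 (limma adjusted p = 0.042). Vax1, a ventral eye homeodomain factor, differed by 0.87 (limma adjusted p = 0.0378). Meis2 and Meis1, homeodomain partners of other transcription factors, differed by 0.42 and 0.26 (limma adjusted p = 0.0252 and 0.0298).

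Atoh7, the proneural factor needed for ganglion cells and the source of the Cre driver, was at 144 ± 112 in WT and 299 ± 98.2 in mutant RGC libraries (SD, n = 3) and did not pass (log2 1.25, limma adjusted p = 0.113). Pax6, a homeodomain factor of eye development, differed by 0.00 (limma adjusted p = 0.991). Between fractions 5.07% of all genes were called higher and 12% lower. Of the 16 regulators, 2 rose in non-RGC libraries and none fell (median log2 difference 0.21). None fell by voom, in the authors' deposited table or at an unadjusted limma p under 0.05 either. The 2 that rose were Hes1 and Hes5, effectors of Notch signalling, with log2 differences of 0.42 and 0.55 (limma adjusted p = 0.0116 and 0.00914).

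Of 18 genes tested that are linked to DLX1 and DLX2 as targets, 6 rose and 3 fell between genotypes, with a median log2 difference of -0.03. Over all genes 13.7% were called higher and 12.3% lower, and the 3 that fell are near that share. The GABA genes were among those that rose. Gad1 and Gad2, which encode the enzymes that make GABA, went from 561.1 ± 14.9 to 847.7 ± 31.8 (log2 0.59, limma adjusted p = 0.0215) and from 686.5 ± 131 to 1231 ± 61.5 (log2 0.86, limma adjusted p = 0.0238; SD, n = 3). By library, Gad1 stood at 548.4, 576.8 and 573.1 in WT and at 888.3, 790.5 and 828.4 in mutant RGC libraries. WT library 3, high for Dlx1 and Dlx2, was level with its group for Gad1. Slc32a1, the vesicular transporter of GABA and glycine, rose by 0.58 (limma adjusted p = 0.0242). WT library 3 was the highest of its group for Gad2 (841.5 against 625.1 and 610.5) and for Slc32a1 (577.5 against 460.9 and 506.3).

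Olig2, a gene that DLX1 and DLX2 are known to repress in the forebrain, rose the most of the target list. It had 172.0, 180.0 and 379.1 normalised reads in WT and 753.2, 722.4 and 673.6 in mutant RGC libraries, a log2 difference of 1.68 (SE 0.30, limma adjusted p = 0.0244). The direction was that of the Dlx genes, and a link between Olig2 and the Dlx genes was not tested. Olig2 is also in the list of progenitor and Mueller glia markers used below. Otx2, a photoreceptor and bipolar cell regulator, rose by 0.74 (limma adjusted p = 0.0312), and Zeb2, which acts in interneuron migration, by 0.68 (limma adjusted p = 0.0251). Crx, a photoreceptor factor, did not pass (log2 0.43, limma adjusted p = 0.153).

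Nrp2, a semaphorin receptor known to be repressed by DLX proteins, was lower in the mutant, with 1639, 1816 and 1003 normalised reads in WT and 693.1, 731.7 and 731.0 in mutant RGC libraries (log2 -0.97, limma adjusted p = 0.0287). Ntrk2, which encodes the BDNF receptor TrkB and is reported as activated by DLX2 in the retina, was lower as well (log2 -0.92, limma adjusted p = 0.0364). Pou4f2, also reported as activated by DLX proteins in ganglion cells, was at 2682 ± 345 in WT and 1522 ± 538 in mutant RGC libraries (SD, n = 3) and did not pass (log2 -0.88, limma adjusted p = 0.0579). Nrp2 and Ntrk2 were lower in non-RGC than in RGC libraries too (log2 -1.65 and -1.54, both at limma adjusted p = 0.00424). Between fractions 5.07% of all genes were called higher and 12% lower. Of the 18 target genes, 2 rose in the non-RGC fraction, Gad2 (log2 0.27, limma adjusted p = 0.0377) and Cxcr4 (log2 0.23, limma adjusted p = 0.0283). Of the 5 that fell there, Pak3 and Map2 did so by 0.37 and 0.35 (limma adjusted p = 0.0371 and 0.0172). The authors' deposited table calls none of the 18 higher and 4 lower in that fraction.

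**Figure D3:**
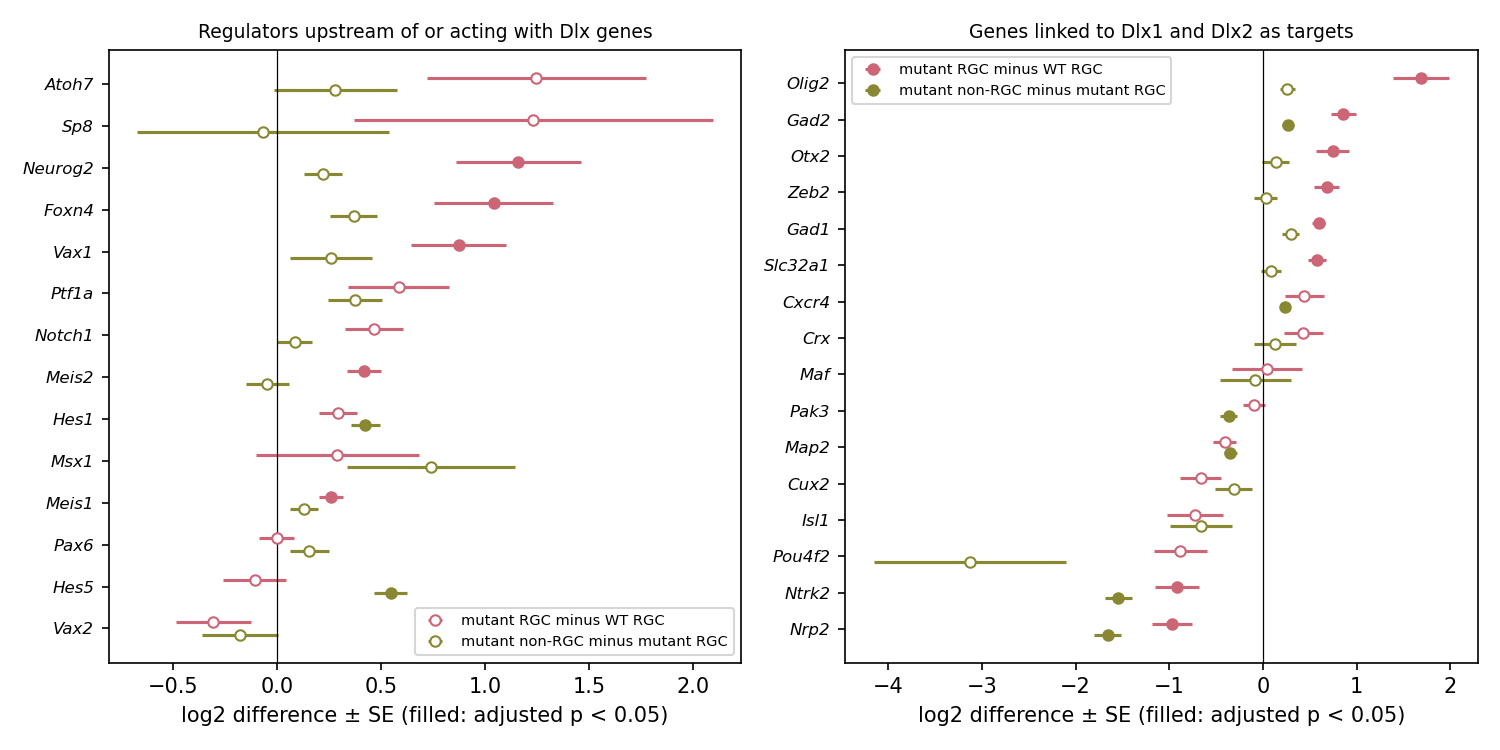
Log2 difference ± SE (x axis) of 14 regulators and 16 genes linked as targets, for mutant RGC minus WT RGC and for mutant non-RGC minus mutant RGC libraries; filled points passed at an adjusted p under 0.05. Between genotypes 5 of the plotted regulators and 6 of the plotted targets lie filled above 0, and 2 targets filled below 0.

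All 21 calls between genotypes on named genes of these lists and on the neighbouring genes described below were lost when WT library 1 or 2, or mutant RGC library 2 or 3, was left out, as were nearly all calls of this comparison, which fell from 3971 genes to between 3 and 9. All 21 held without WT library 3, and 12 of them without mutant RGC library 1. Of the 12 such calls between fractions, 5 held when mutant RGC library 2 or library 3 was left out, 4 without non-RGC library 1 and 8 without non-RGC library 2. The calls of Nrp2, Ntrk2, Hes5 and Rapgef4 held without any 1 library.

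Lists of other retinal cells and of dividing cells also held genes that differed between genotypes, against 13.7% of all genes called higher and 12.3% lower. Between genotypes 35 of 38 proliferation genes rose (median log2 difference 0.95), and their summed level was 27490 to 46990 in WT RGC, 61190 to 62820 in mutant RGC and 72840 to 74600 in mutant non-RGC libraries. Increases were called for 13 of 36 markers of progenitors and Mueller glia and for 10 of 27 photoreceptor markers, and decreases for none of either list, with 1 downward in each at an unadjusted limma p under 0.05. The authors' deposited table calls 1 photoreceptor marker lower, and voom none. The summed photoreceptor level was 19110, 19530 and 25110 in WT RGC libraries 1 to 3, 38180, 25340 and 26900 in mutant RGC libraries and 29020, 28890 and 39000 in mutant non-RGC libraries. Within the mutant groups this sum was highest in RGC library 1 and non-RGC library 3, where Dlx1 and Dlx2 were lowest. Among WT RGC libraries it was highest in library 3, where Dlx1 and Dlx2 were highest too. Amacrine and GABA or glycine cell markers, cells in which Dlx1 and Dlx2 are normally found, rose in 10 and fell in 5 of 26, and their summed levels were 33250 to 35580 in WT RGC and 36490 to 38640 in mutant RGC libraries. Of the 5, Neurod6 met the minimum level through its WT libraries alone. Its normalised count was 24.85 ± 2.11 in WT RGC and 5.18 ± 2.62 in mutant RGC libraries (SD, n = 3), so its call is not a test. Horizontal cell markers rose in 3 of 10 and none was called lower, with 2 downward at an unadjusted limma p under 0.05 (median log2 difference 0.18). Tfap2a, among the 3, is in the amacrine list as well. Ganglion cell markers fell in 12 of 32 (median log2 difference -0.78), in 22 by voom and in 19 in the authors' deposited table, with summed levels of 71070 to 82150 in WT RGC, 38010 to 57540 in mutant RGC and 19380 to 27570 in mutant non-RGC libraries. No marker of the ganglion, amacrine, horizontal, progenitor or proliferation lists was at 0 in all libraries of a group. The part of these lists in the values of Dlx1 and Dlx2 was not tested.

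Across the 9 libraries Dlx1 and Dlx2 followed each other closely, with Pearson r = 0.979 on the log2 scale, and r = 0.968 after each group's mean was subtracted. Among 11937 genes with a mean normalised count of at least 50, the 10 whose pattern was most like the mean of the pair were Prss56, Fezf2, Fndc3c1, Pars2, Sdad1, Sstr2, Klf9, Col4a6, Col9a1 and Dnmt1, with r between 0.986 and 0.996. Prss56, a serine protease of the eye, had 209.3, 170.5 and 483.2 normalised reads in WT RGC, 548.7, 1463 and 1433 in mutant RGC and 1847, 1988 and 715.8 in mutant non-RGC libraries. WT library 3 was high in its group, and mutant RGC library 1 and non-RGC library 3 were low in theirs, as for the pair. Fezf2, a zinc finger transcription factor of neurons, had 193.6, 177.9 and 368.2 in WT RGC, 402.5, 663.6 and 658.0 in mutant RGC and 834.0, 833.9 and 562.6 in mutant non-RGC libraries. With the group means subtracted, r with the pair was 0.991 for Prss56, 0.978 for Fezf2, 0.988 for Klf9 and 0.962 for Dnmt1, the maintenance DNA methyltransferase. Atoh7 stood at rank 134 (r = 0.953, and 0.926 after subtraction), and Dlx3 at rank 395 (r = 0.923, and 0.62). The points of these correlations share the libraries, and the genes were picked from many, so r is a description.

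**Figure D4:**
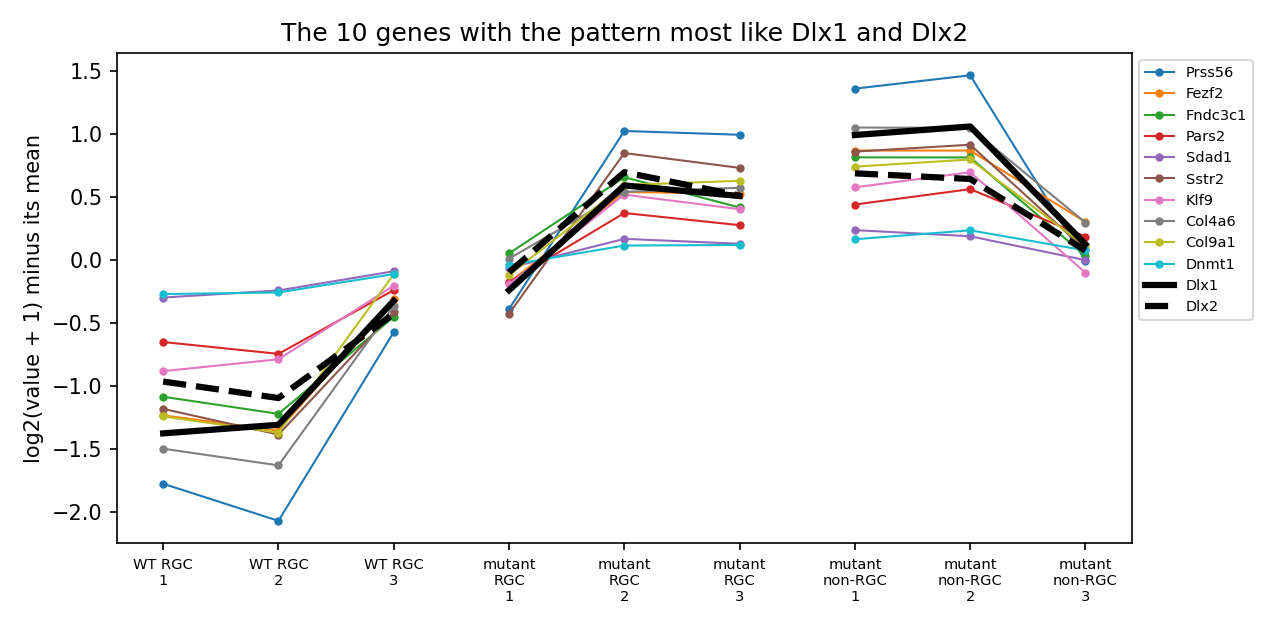
Log2(normalised count + 1) minus the gene's mean over the 9 libraries (y axis) for Dlx1, Dlx2 and the 10 genes of most similar pattern; lines join the libraries of a group as an aid to the eye, and libraries have no order. WT library 3 is high and mutant RGC library 1 and mutant non-RGC library 3 are low within their groups in every line.

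Of the 5 expressed genes on either side of the pair on chromosome 2, 3 rose between genotypes, 1 fell and 6 did not pass, where 13.7% of all genes were called higher and 12.3% lower. Metap1d, a mitochondrial methionine aminopeptidase gene and the nearest at 2.92 kb from Dlx1, had 276.2, 223.1 and 501.9 normalised reads in WT RGC and 318.3, 326.6 and 316.4 in mutant RGC libraries, and did not pass (log2 0.06, limma adjusted p = 0.885). WT library 3 was again far above the others, and without it Metap1d was higher in the mutant (log2 0.40, limma adjusted p = 0.0449). Without that library 3383 of 15304 genes were called higher and 3095 lower. In the non-RGC libraries Metap1d stood at 990.8, 876.5 and 531.7, above every RGC library of the mutant (log2 1.27, SE 0.22, limma adjusted p = 0.0126). Non-RGC library 3 was the lowest of its group here, as for Dlx1 and Dlx2.

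Hat1, a histone acetyltransferase gene 86.5 kb away on the side of Dlx1, rose by 0.75 between genotypes (limma adjusted p = 0.0293). On the side of Dlx2, Itga6, an integrin subunit of progenitor and other epithelial cells 240 kb away, rose by 1.04 (limma adjusted p = 0.0215), and Cdca7, a gene of dividing cells 929 kb away, by 1.12 (limma adjusted p = 0.0349). Rapgef4, a cAMP-activated exchange factor 434 kb away, had a log2 difference of -1.29 (limma adjusted p = 0.025). Between fractions Cdca7 rose by 0.35 (limma adjusted p = 0.018) and Rapgef4 was lower (log2 -1.99, limma adjusted p = 0.00614). Cybrd1, Dync1i2, Slc25a12, Pdk1 and Zak passed in neither comparison.

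**Figure D5:**
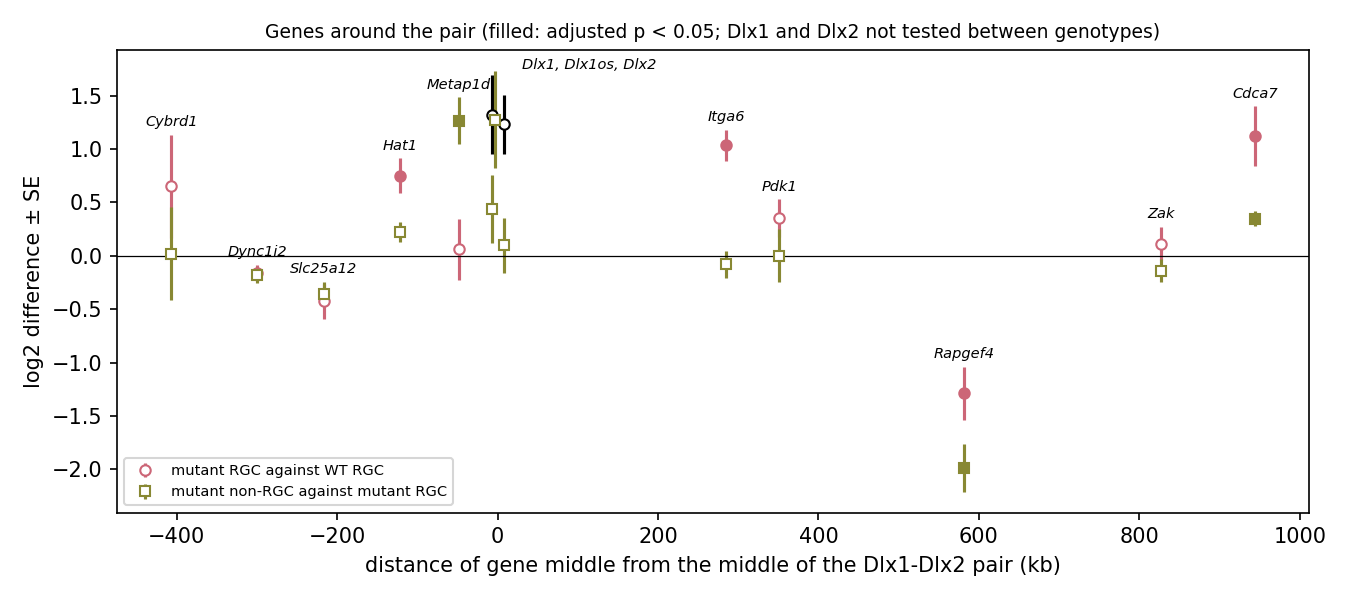
Log2 difference ± SE (y axis) of Dlx1, Dlx2, Dlx1os and the 5 expressed genes on either side against distance from the middle of the pair (x axis, kb), circles for mutant RGC minus WT RGC and squares for mutant non-RGC minus mutant RGC libraries. Filled points passed at an adjusted p under 0.05, and the black circles of Dlx1 and Dlx2 were not tested; 3 neighbours rose and Rapgef4 fell between genotypes.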

How the data were processed

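The labels list 30 samples, 18 of them RNA libraries. The submitters' processing notes name STAR 2.3, featureCounts, DESeq and FastQC on mm10, with no strand setting. The deposited values are, per the file headers, mean normalised counts of all libraries and of 2 conditions. The deposited ratio is the fold of condition B over A, given also as a log2 value, and the deposited p-value and adjusted p-value are the authors'. Read counts of single libraries were recovered as the whole numbers that, divided by the size factors, give each deposited mean, within 1e-09. This held for at least 99.97% of genes above 0 in a condition. Genes at 0 in the same libraries showed which condition is the mutant RGC group.

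Counts were divided by the size factors of each table. Genes with a mean of at least 10 entered limma 3.58.1 (R 4.3.3) with a variance trend on log2(value + 1), which understates changes of low genes. Calls had a Benjamini-Hochberg adjusted p under 0.05 over all genes tested. Means and fold differences use each table's scale, and library values, group levels of Dlx1 and Dlx2, summed list levels and correlations use 1 scale over 9 libraries. Exact binomial and Poisson intervals cover counting error. The fits were tested on simulated data. The pair and the 16 gene lists were chosen with earlier results of these data known. Named were the family, up to 3 list members of smallest adjusted p per comparison, 8 chosen genes, 5 neighbours per side and 10 genes of most similar pattern; other called list members were named after their values were seen. A few of the genes so named are not reported here, though list counts include them. Alternatives were pseudocount, filter, scaling, voom, a joint fit and leaving out each library.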

Additional observations from a re-analysis of the deposited data

How the results depend on the processing

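No paired analysis was possible because the columns of the tables carry no replicate numbers. Leaving out 1 library at a time gave log2 differences between genotypes of 1.14 to 1.66 for Dlx1 and 1.06 to 1.48 for Dlx2, and between fractions of 0.16 to 0.74 for Dlx1 and -0.15 to 0.30 for Dlx2. It gave mean log2 ratios of Dlx1 to Dlx2 of -1.01 to -0.75 in WT RGC, -0.81 to -0.74 in mutant RGC and -0.51 to -0.32 in mutant non-RGC libraries. Of the Dlx lists, 13 of 35 genes tested were called higher and 3 lower between genotypes, and 4 of 36 higher and 5 lower between fractions. The shares over all genes were 13.7% and 12.3% between genotypes, and 5.07% and 12% between fractions. With 1 library left out the counts of the Dlx lists ran from 0 to 19, 0 to 6, 1 to 5 and 2 to 6. Those lower between genotypes were 7 with voom and 6 in the joint fit of 9 libraries. Those higher between fractions were 2 without the filter, 2 in the authors' table, 7 with upper-quartile and 11 with total-count scaling. The cause was not tested. Over all genes, 2092 higher and 1879 lower calls between genotypes became 1980 and 2294 with upper-quartile scaling and 1850 and 2617 with voom, and 770 and 1820 between fractions became 1465 and 1601 with total-count scaling. Without WT library 3 the genotype calls were 6478, without mutant RGC library 1 2284, and between fractions they ran from 438 to 3325. Differences that changed sign with 1 library left out, none of them called with all libraries, ran from -0.19 to 0.40 for Metap1d (called without WT library 3) and -0.0413 to 0.207 for Zak between genotypes, and between fractions from -0.0235 to 0.503 for Atoh7, -0.0622 to 0.353 for Crx, -0.41 to 0.35 for Cybrd1, -0.176 to 0.051 for Itga6 and -0.25 to 0.22 for Pdk1. In the authors' table Metap1d differed by -0.0255 between genotypes and Cybrd1 by -0.0929 between fractions. Of 12 named calls between fractions, between 4 and 12 held without 1 library.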

Other observations

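Lists of further cell types and states were measured beside the pair. Over all genes tested, 13.7% were called higher and 12.3% lower between genotypes, and 5.07% higher and 12% lower between fractions. Microglia markers, 16 in all, were all lower in mutant non-RGC than in mutant RGC libraries (median log2 difference -5.71) and none was called between genotypes (median -0.30), nor was any there at an unadjusted limma p under 0.05, by voom or in the authors' deposited table. Between fractions 8 of them were called by voom and 10 in the authors' deposited table. Their summed level was 2757 to 10170 in mutant RGC libraries and 222.1 to 284.7 in mutant non-RGC libraries. Any of the 16 with a mean under 10 in the non-RGC libraries met the minimum level through the RGC libraries alone. The count of 16 between fractions is therefore given as a description. Endothelial and pericyte markers rose in 1 of 14 between genotypes and in none between fractions, also at an unadjusted limma p under 0.05. That 1 of 14 is below the share over all genes. Bipolar cell markers rose in 3 of 8 between genotypes and none was called lower, with 1 downward at an unadjusted limma p under 0.05. None of 6 astrocyte markers was called in either comparison, with 2 higher between genotypes at an unadjusted limma p under 0.05. Of 30 dissociation and immediate early genes, 10 fell and none rose between genotypes (median log2 difference -0.22). Between fractions 2 of the 30 fell, below the share over all genes. Pigment epithelium, lens and blood markers rose in 3 and fell in 1 of 15 between genotypes, counts near the shares over all genes. Of 35 genes of the Polycomb and H3K9 methylation machinery, 8 rose and 4 fell between genotypes, where 13.7% of all genes were called higher and 12.3% lower, a share the 4 are near (median log2 difference 0.13). The G9a gene Ehmt2 was among those that were lower, with 3743, 3603 and 3857 normalised reads in WT RGC and 2364, 2799 and 2962 in mutant RGC libraries (log2 -0.43, limma adjusted p = 0.0332).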
